A study of Rattus norvegicus with 4 samples.

Results

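The genes described here are 10 genes of antigen presentation to CD4+ T cells, taken from the 16581 rat genes that could be named on the array. They are the classical MHC class II chains RT1-Da, RT1-Db1, RT1-Ba and RT1-Bb, the peptide editor chains RT1-DMa and RT1-DMb, the invariant chain Cd74, the class II transactivator Ciita, and the costimulatory ligands Cd80 and Cd86. They were chosen by name, through probes whose accession belongs to one of these symbols in RefSeq. All 10 had a named probe. Ciita had 2 probes and each other gene had 1. RNA came from NR8383 cells, an established macrophage line that came from rat lung lavage. All 4 samples belong to 1 group: passage 20 cells grown with 15% serum, seeded for 48 h, and held for 4 h in the water control that the labels tag ALI, a term they do not spell out. The series' text calls them biological replicates, and the labels name no genotype, agent or treatment other than water. With 1 group there is no comparison between conditions, and what follows describes levels and their spread over 4 one-colour arrays.

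MHC class II molecules are pairs of an alpha and a beta chain that show peptides from engulfed proteins to CD4+ T cells. In the rat, RT1-D and RT1-B are the classical pairs. Cd74 fills the groove of a new class II molecule and steers it to endosomes, where proteases trim it to a short fragment, and the DM pair removes that fragment and lets peptide bind. Ciita binds to a protein assembly on class II promoters and switches these genes on, with interferon gamma as its best known inducer in macrophages. Cd80 and Cd86 bind Cd28 on the T cell and give the second signal for its activation. Alveolar macrophages are known as weak presenters to T cells in comparison with dendritic cells.

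The assembly to which Ciita is recruited holds a promoter through the X box, bound by the RFX complex, and the Y box, bound by NF-Y. The stretches of RefSeq promoter sequence (build GRCr8) below come from class II genes measured here. They are shown because they hold the Y box letters searched, and in all but RT1-Ba also the X box letters. Each reads 5′ to 3′ on the strand of the gene, and capitals mark the X box letters (on the left) and the Y box letters (on the right).
RT1-Da: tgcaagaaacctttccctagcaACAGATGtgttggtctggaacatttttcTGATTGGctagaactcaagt
RT1-Db1: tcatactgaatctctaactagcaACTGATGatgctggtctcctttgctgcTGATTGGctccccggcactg
RT1-Bb: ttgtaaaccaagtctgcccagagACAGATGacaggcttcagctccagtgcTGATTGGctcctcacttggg
RT1-DMa: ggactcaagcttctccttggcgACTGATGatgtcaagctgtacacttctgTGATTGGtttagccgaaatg
RT1-Ba: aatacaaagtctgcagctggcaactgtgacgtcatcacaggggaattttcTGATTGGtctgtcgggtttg

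The stretch of RT1-Da is chr20:4515314-4515383 on the plus strand, and that of RT1-Ba is chr20:4576962-4577031 on the plus strand. On the minus strand lie those of RT1-Db1 at chr20:4560225-4560294, of RT1-Bb at chr20:4604162-4604231 and of RT1-DMa at chr20:4712382-4712451. Each lies before the annotated gene start. The letters searched, on both strands of the 250 bases before each start, were ACNGATG for the X box (its right-hand part) and TGATTGG for the Y box, which do not overlap in a pair. They were written with these promoters in view. The Y box letters were in all 5 RT1 promoters of the set that the table holds, and the X box letters in 4. In RT1-Ba the X letters were not found. The search covered this spelling only, so whether RT1-Ba holds an X box with other letters was not tested. Among 33469 promoter entries, 8.55% held the X letters, 6.42% the Y letters, and 11 entries (0.0329%) held X followed by Y with 15 to 30 bases between them.

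Of those 11 promoters, 6 belong to class II genes, all with both boxes on the strand of the gene. They are RT1-Da and RT1-DMa with 21 bases between the boxes, RT1-Db1 and RT1-Bb with 20, RT1-Db2 with 19 and RT1-DOb with 18. The other 5 belong to genes outside the class II set. RT1-Db2 was named after its values were seen. The class II genes that share this pair of boxes differed in detection. RT1-DMa and RT1-Db1 were well above background on 4 arrays, and RT1-Da, RT1-Bb, RT1-Db2 and RT1-DOb on none. Cd80, Cd86 and Cd74 held neither set of letters in this window. RT1-DMb and Ciita had no entry in the table.

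**Figure D1:**
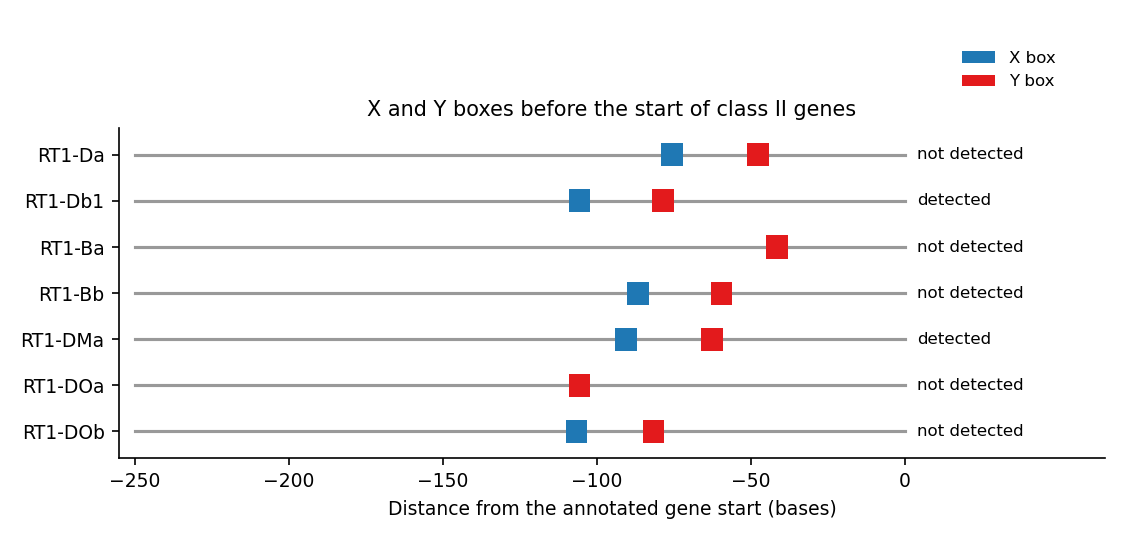
Position of the X box letters (blue) and Y box letters (red) in the 250 bases before the annotated start of 7 class II genes; the x axis is the distance from the start in bases, and detection on the arrays is written at the right. RT1-DMa and RT1-Db1 were detected, while RT1-Da, RT1-Bb and RT1-DOb hold the same pair of boxes and were not.

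On the arrays, 3 of the 10 genes were detected: RT1-DMa, RT1-DMb and RT1-Db1. A gene is called detected here when at least 1 probe was flagged well above background on 4 of 4 arrays, which held for 51.0% of all named genes. The other 7 were flagged on no array, as were 42.6% of all named genes, and no member was flagged on 1 to 3 arrays, as 6.43% of all named genes were. In bulk RNA, fewer cells that express a gene and less RNA per cell cannot be told apart. The intensities below are the processed signals of the scanner software, without scaling. The 298 to 303 negative control spots of each array that carried no outlier flag give the background: their median lay between 4.09 and 4.72 over the arrays, and their highest value between 6.75 and 9.07. The dimmest gene spot flagged well above background had an intensity between 18.1 and 21.5. Probes bind with different strength, so each probe is followed across arrays and not ranked against another.

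**Figure D2:**
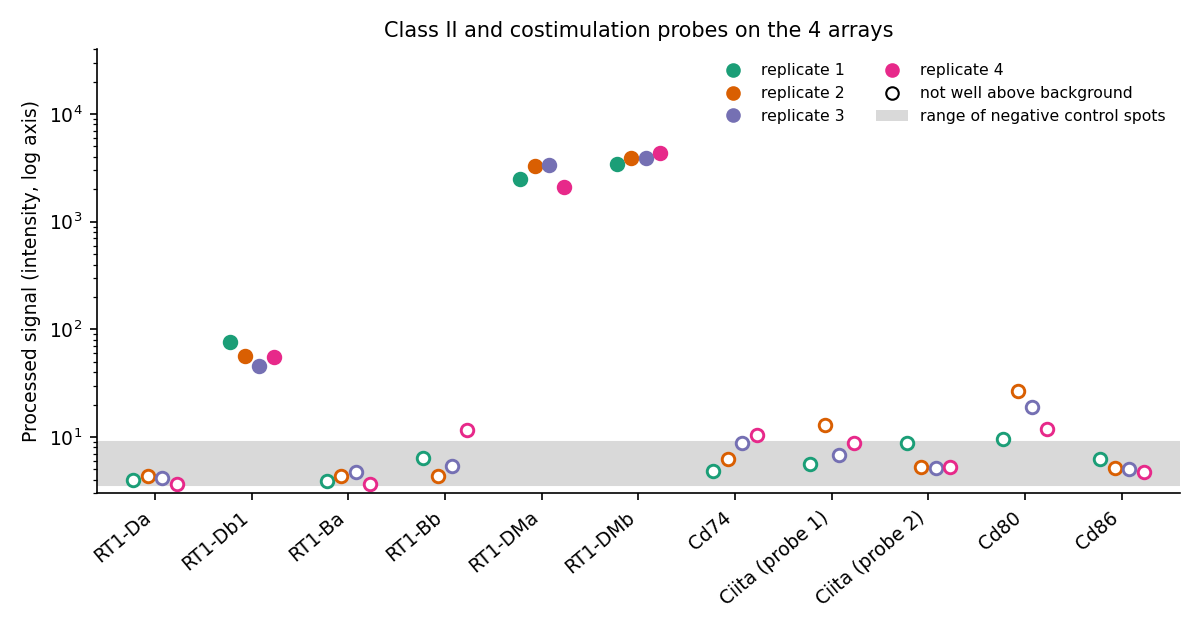
Processed signal (intensity, log axis) of each of the 11 probes of the 10 genes on the 4 arrays; filled points are probes well above background on 4 arrays, open points on none, and the grey band is the range of the negative control spots. RT1-DMa, RT1-DMb and RT1-Db1 stand clear of the band on every array, and RT1-Da and RT1-Ba lie within it on every array.

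Both chains of the peptide editor DM gave a strong signal. RT1-DMa, the alpha chain, had intensities of 2473, 3299, 3367 and 2124 on replicates 1 to 4. Its signal was 519 to 738 times the median negative control of the same array. RT1-DMb, the beta chain, had intensities of 3473, 3922, 3934 and 4303 on replicates 1 to 4, or 805 to 1050 times the median negative control. No array was near background for either chain. On the log2 scale relative to the 75th percentile of each array, RT1-DMa was at 1.53 ± 0.20 (SD, n = 4) and RT1-DMb at 2.02 ± 0.29 (SD, n = 4). On this processed signal, with and without scaling, replicate 4 was the lowest array for RT1-DMa (1.35) and the highest for RT1-DMb (2.37). On the median pixel signal of the same spots, before the scanner software's corrections, replicate 4 was the lowest array for both chains, at 2388 for RT1-DMa and 2403 for RT1-DMb. Both probes had 1 spot per array, so spot error and array error cannot be separated.

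Of the 4 classical chains, the beta chain RT1-Db1 was the one detected. Its intensities, averaged over 2 spots, were 76.2, 56.3, 46.1 and 55.6 on replicates 1 to 4, which is 10.1 to 17.7 times the median negative control. On the scaled log2 scale it was at -4.06 ± 0.51 (SD, n = 4). All 8 of its spots were well above background. The spots of 1 array differed as much as the arrays did. On replicate 1 they read 48.8 and 119, a ratio of 2.44, and on replicate 3 they read 32.4 and 65.5, a ratio of 2.02. The ratio was 1.15 on replicate 2 and 1.14 on replicate 4. Over all probes with 2 spots at this brightness (12 to 19 per array), the median ratio between spots was 1.15 to 1.33. RT1-Db2, a second beta chain gene of the same family, had intensities of 3.95, 4.35, 4.19 and 3.69 and was well above background on no array. How far the RT1-Db1 probe can tell these related genes apart was not tested.

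The chain that pairs with RT1-Db1, the alpha chain RT1-Da, was at the level of the negative controls. Its intensities were 3.97, 4.37, 4.19 and 3.68 on replicates 1 to 4, below the median negative control of every array. Its 2 spots agreed to within a ratio of 1.05 on each array. RT1-Ba, the alpha chain of the other classical pair, read 3.91, 4.31, 4.72 and 3.66 and was above the negative control median on replicate 3 only (1.03 times), the 1 array on which it passed the looser flag described below for Cd74. Neither alpha chain was thus separated from blank spots on these arrays. Each was measured by 1 probe, and how well these probes match the alleles of this line was not tested.

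RT1-Bb, the beta chain of that pair, read 6.32, 4.39, 5.42 and 11.6. It was above all 299 negative controls on replicate 4. At least as bright were 2 of 298 negative controls on replicate 1, 233 of 303 on replicate 2 and 37 of 300 on replicate 3. The looser flag described below for Cd74 was set on 3 arrays, all but replicate 2. The array with the highest value, replicate 4, differed from the lowest by 1.67 on the scaled log2 scale, and none of the 4 values was well above background.

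Cd74, the invariant chain, was measured by 10 spots per array, and none of its 40 spot readings was well above background. The median of the 10 spots was 4.49 on replicate 1, 4.87 on replicate 2, 9.24 on replicate 3 and 11.0 on replicate 4. The brightest single spot read 20.7 on replicate 2, 14.4 on replicate 3 and 19.1 on replicate 4. By these unscaled medians, replicates 3 and 4 were brighter than replicates 1 and 2. Averaged over spots and scaled, Cd74 was at -7.51, -7.21, -7.13 and -6.33 on replicates 1 to 4, so replicates 2 and 3 lay close together. A looser flag, which marks spots that are positive and significantly above local background, was set on 3, 3, 9 and 8 of the 10 spots. Averaged over spots, the signal passed all negative controls on replicates 3 and 4. At least as bright were 46 of 298 negative controls on replicate 1 and 2 of 303 on replicate 2.

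**Figure D3:**
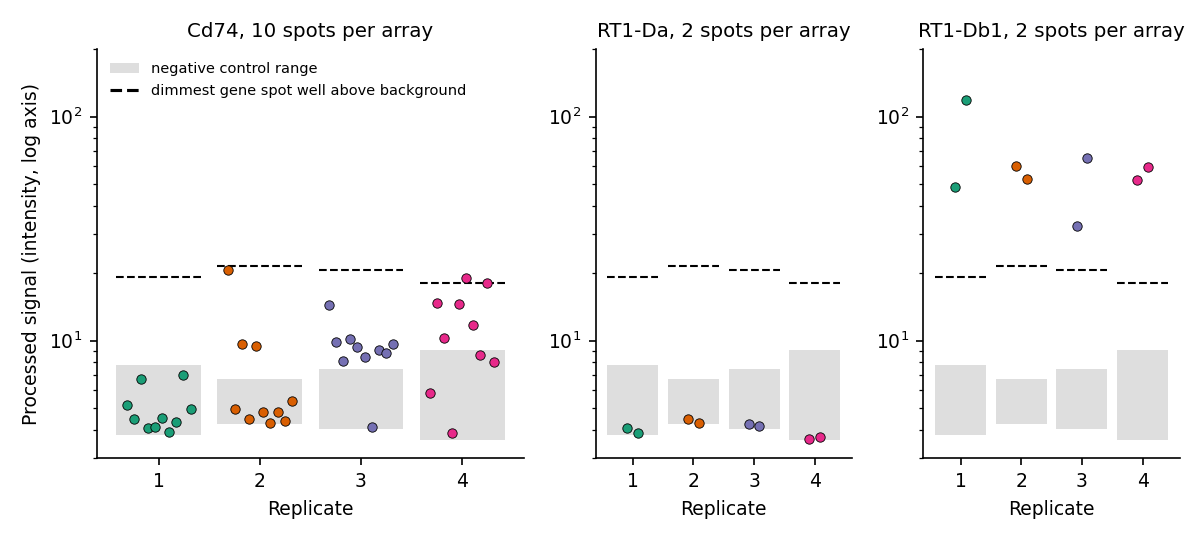
Processed signal (intensity, log axis) of every spot of the Cd74, RT1-Da and RT1-Db1 probes on each of the 4 replicates; grey bands give the range of the negative controls of that array and dashed lines the dimmest gene spot flagged well above background. Most Cd74 spots lie above the band on replicates 3 and 4 and within it on replicates 1 and 2, RT1-Da stays at the lower edge, and the 2 RT1-Db1 spots lie farthest apart on replicates 1 and 3.

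Ciita, the switch of class II transcription, was not well above background with either probe. Its brighter probe read 5.64, 12.8, 6.76 and 8.83 on replicates 1 to 4. At most 5 of the 298 to 303 negative controls per array were as bright. The looser flag was set for this probe on 4 arrays. The second probe read 8.82, 5.32, 5.16 and 5.22 and passed that flag on replicate 1 alone. The probes put the highest signal on different arrays, replicate 2 for the first and replicate 1 for the second.

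Neither of the ligands of Cd28, Cd80 and Cd86, was well above background on any array. Cd80 read 9.53, 26.6, 19.1 and 11.8 on replicates 1 to 4, above every negative control on each array, at 2.21 to 5.63 times their median. It passed the looser flag on 4 arrays, as 60.4% of all named genes did, and its value on replicate 2 lay above the dimmest spot flagged well above background on that array (21.5), though it carried no such flag itself. Cd86 read 6.21, 5.11, 5.03 and 4.76. On replicates 2 to 4, 61 to 88 negative controls were at least as bright, and on replicate 1 only 2 were. With either looser criterion, the positive flag or a signal above the mean + 2 SD of the negative controls, 5 of the 10 genes counted as detected, the added genes being Ciita and Cd80. The background shares were then 60.4% and 60.0%.

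Between replicates, the detected chains varied more than the median gene. The SD over the 4 arrays was 0.20 for RT1-DMa, 0.29 for RT1-DMb and 0.51 for RT1-Db1, against a median of 0.144 over 8455 detected genes on the log2 scale. These SDs lay at the 72.7th, 87.5th and 98.1th percentile of all detected genes, without regard to signal. Dim genes vary more, and at the signal of RT1-Db1 the fitted SD was 0.263. It was 0.124 at the signal of RT1-DMa and 0.121 at that of RT1-DMb. None of the 3 was called hypervariable by limma's variance test, in which 0.237% of detected genes were called. The adjusted p was 0.659 for RT1-DMb, 0.830 for RT1-Db1 and 0.957 for RT1-DMa (limma), and 1 of the 3, RT1-DMb, had an unadjusted p under 0.05 (0.0216, limma), against 6.29% of detected genes. The fit without a trend also called 0 of the 3, again with 1 at an unadjusted p under 0.05. That number was 0 without scaling, with another background correction (normexp) and without replicate 3, and 2 without replicate 2. RT1-Db1 was the 1 member that spanned more than 2-fold (2.33-fold), as 3.26% of detected genes did. Without scaling, with normexp, or without replicate 1 or replicate 3, its span stayed under 2-fold.

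**Figure D4:**
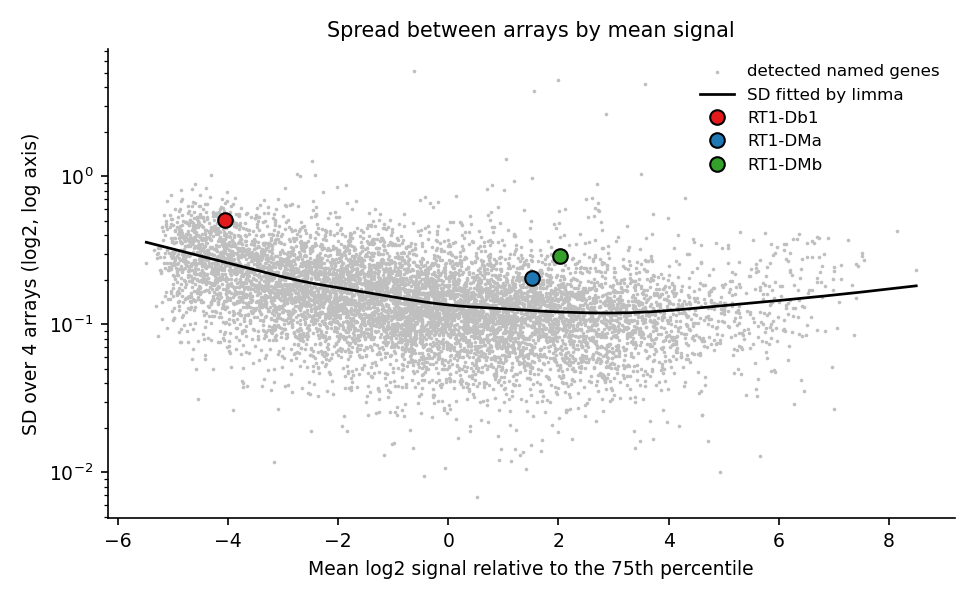
SD over the 4 arrays (log2, log axis) against the mean log2 signal relative to the 75th percentile for 8455 detected genes (grey), with the SD that limma fitted for genes of the same signal (line). RT1-Db1 (0.51), RT1-DMb (0.29) and RT1-DMa (0.20) lie above the line and within the cloud of other genes.

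Regulators of class II transcription were mostly detected. This list holds the factors that Ciita works with, and also receptors, kinases, cytokines and repressors. Of 24 regulators, 18 were detected, 3 partly and 3 not, while 51.0% of all named genes were detected. The RFX complex was present with all 3 subunits, Rfx5 (-1.17 ± 0.22), Rfxank (0.30 ± 0.15) and Rfxap (-1.82 ± 0.14; scaled log2, SD, n = 4 here and in what follows). Of NF-Y, Nfya (-3.34 ± 0.29) and Nfyc (-1.98 ± 0.31) were detected, and Nfyb was well above background on 3 arrays (-5.12 ± 0.16). Creb1, which binds the X2 box, was at -1.92 ± 0.07. Thus, by the well above background flag, RFX and CREB1 were detected in full, NF-Y in 2 of 3 subunits, and Ciita not. By the looser flag, Nfyb and Ciita both passed on 4 arrays.

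The receptor path of interferon gamma was also detected. Both receptor chains, Ifngr1 (2.55 ± 0.23) and Ifngr2 (1.08 ± 0.08), the kinases Jak1 (3.36 ± 0.07) and Jak2 (-2.01 ± 0.12), and the transcription factor Irf1 (1.09 ± 0.12) were well above background on 4 arrays. The cytokine gene Ifng itself was not, with a value of -7.85 ± 0.22. Irf8, a myeloid transcription factor, was not detected (-7.40 ± 0.15), and Irf4 was (-0.85 ± 0.06, by 1 of 2 probes). Of factors known to lower class II transcription, Ezh2 (-2.97 ± 0.27) was detected, and Prdm1, a repressor of Ciita, was flagged on 3 arrays. Il10 was well above background on none, but passed the looser flag on 4 arrays. Factors of this kind in the list are not all reported here by name, and some were detected at higher values than Ezh2.

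Genes that load and move class II molecules were mostly detected as well. Of 17 such genes, 14 were detected, 1 partly and 2 not, while 51.0% of all named genes were detected. Ap1b1 had no named probe. The 2 not detected were RT1-DOa (-7.63 ± 0.23) and RT1-DOb (-7.92 ± 0.21), the chains of DO, the inhibitor of DM. Enzymes that trim Cd74 and antigens were present, among them Ctss, the main protease of the last Cd74 fragment in many presenting cells (2.01 ± 0.02), Lgmn, an asparagine-specific protease (2.08 ± 0.21), Sppl2a, which cuts the membrane stub of Cd74 (2.38 ± 0.13), and Ifi30, a reductase of disulfide bonds in antigens (5.65 ± 0.12). Marchf1 (1.07 ± 0.19, by 3 of 3 probes) and Marchf8 (2.60 ± 0.11), ubiquitin ligases that remove class II and Cd86 from the cell surface, were detected. Cd82, a tetraspanin of class II compartments, varied most among the detected genes of this list (-2.04 ± 0.53, range -2.59 to -1.43; adjusted p = 0.413, limma).

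**Figure D5:**
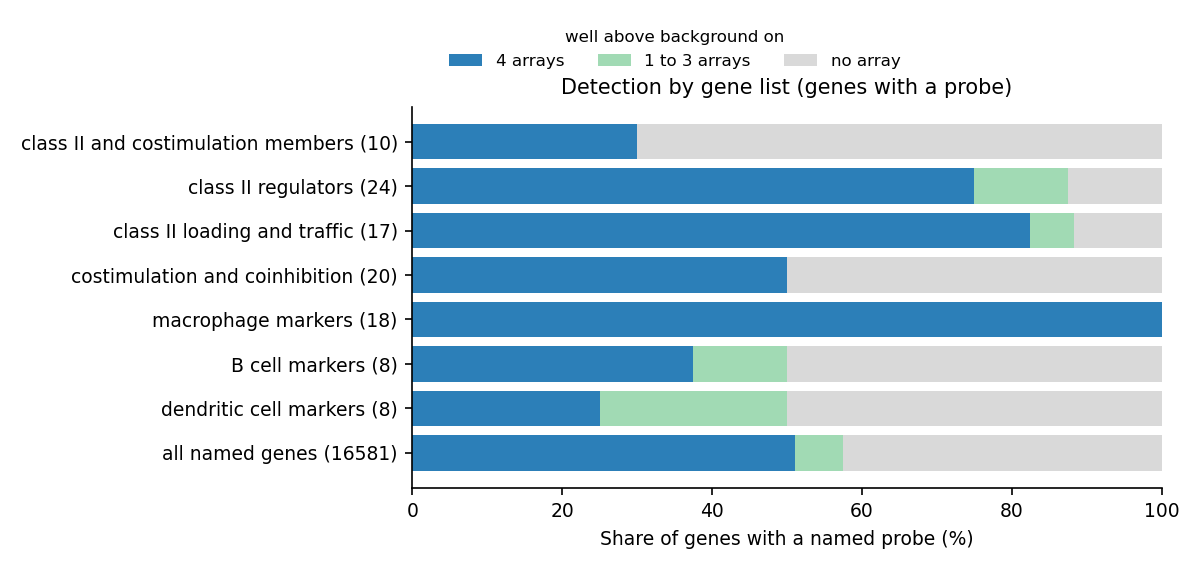
Share of genes with a named probe (x axis, %) that were well above background on 4 arrays, on 1 to 3 arrays or on no array, for each gene list and for all named genes; the number of genes is in parentheses. Of the 10 class II and costimulation members 3 were detected, against 18 of 24 regulators, 14 of 17 loading and traffic genes and 51.0% of all named genes.

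Other ligands and receptors of costimulation were split, with 10 of 20 detected and 10 not, near the 51.0% of all named genes; Icoslg had no named probe. Detected ligands were Cd274, the inhibitory ligand PD-L1 (-2.23 ± 0.12), Cd276 (0.94 ± 0.10), Tnfsf9, the ligand of 4-1BB (-3.39 ± 0.21), and Vsir, the checkpoint protein VISTA (2.09 ± 0.09). The adhesion genes Icam1 (2.88 ± 0.15), Icam2 (-3.57 ± 0.18) and Cd48 (1.80 ± 0.12) were detected too. Cd40, the receptor through which T cells license presenting cells, was well above background on no array (-6.16 ± 0.44), but passed the looser flag on 4. Pdcd1lg2, Tnfsf4, Cd70 and Tnfsf14 were not detected. Of the receptors that T cells carry, Icos was detected by 3 of 3 probes (1.29 ± 0.13) and Cd28 by 1 of 2 (0.72 ± 0.29), while Ctla4 and Pdcd1 were not.

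The cells carried the macrophage markers that their label calls for, and markers of 2 other presenting cell types were detected in part. The share detected was 37.5% for B cell markers and 25.0% for dendritic cell markers, both below the 51.0% of all named genes. All 18 macrophage markers were detected, among them Cd68 (5.07 ± 0.26), Spi1 (1.14 ± 0.10) and Csf1r (-0.97 ± 0.17). Of 8 B cell markers with a named probe, Pax5 (-2.17 ± 0.14), Ebf1 (-1.84 ± 0.08) and Fcrla (1.13 ± 0.08) were detected, and Cd79b, Cr2, Blk and Cd22 were flagged on no array. Of 8 dendritic cell markers with a named probe, Batf3 (-2.83 ± 0.25) and Itgae (-1.84 ± 0.22) were detected, and Zbtb46, Xcr1, Ccr7 and Fscn1 were flagged on no array. Cd209a and Clec9a were flagged on 2 arrays each. The brighter Clec9a probe read -2.42 on replicate 1 and -2.81 on replicate 4. It had no value on replicates 2 and 3, and a missing value counted as not flagged. Whether cells with such markers contribute to the signals of RT1-DMa, RT1-DMb and RT1-Db1 was not tested.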

How the data were processed

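RNA (100 ng per sample, integrity number above 7.5) was labelled with Cy3 for a one-colour Agilent array, per the labels' protocols. The deposited files come from Agilent Feature Extraction 11.0.1.1, with 1 array each, and the 4 arrays share 1 slide and scan, per the file headers. The deposited values are intensities on a linear scale, background-handled within the array and not scaled between arrays, and flags of another kind (0 or 1) per spot. No gene spot was saturated, and 49.2% to 50.3% were well above background. The number of arrays limits the precision.

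Accessions were matched without versions to RefSeq transcripts of GRCr8, for names only; 21109 of 45598 probes (46.3%) matched 1 gene and 24489 are unnamed. Spots with an outlier flag (1.11% to 1.45%) were left out and spots of a probe averaged as log2. A probe counted as flagged when over 50% of its spots were. Scaled values are log2 intensity minus the array's 75th percentile (878.5, 932.1, 1237 and 831.1), from the probe with the highest mean. Variance was tested with limma 3.58.1 in R 4.3.3: an intercept-only fit with eBayes (trend, robust), an upper-tail F test of residual over fitted variance, and Benjamini-Hochberg adjustment over 8455 genes at 0.05. On simulated data for this test over 8455 genes, 72.0% of genes with a 4-fold SD and 100% with a 16-fold SD were called. Smaller factors were not simulated. The 3 detected members lay less than 4-fold above their fitted SD, so the simulation does not tell how often such genes would be called. Other steps used Python 3.11.15.

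The 10 genes and the lists were chosen with earlier results of these data known. Named genes are the 10 members and genes of the lists; RT1-Db2 is marked where named. A few genes counted in the lists are not reported here by name. Alternatives covered the detection flag, the number of arrays, the probe rule, ID matching, scaling, background correction, the variance trend and leaving out each array. The X and Y box search was added after the arrays were seen.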

Additional observations from a re-analysis of the deposited data

Results flagged for a closer look

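Of 67 detected genes in the lists, 3 had 1 array far from the other 3, by Dixon's test of the gap over the range; chance gives about 1 in 20. Of the 10 members, only the 3 detected ones were examined, and none of these was among them. Ifi30, the disulfide reductase of antigen processing, had its low array in replicate 3 (5.47), with the others at 5.71 to 5.72 (scaled log2). Lyz2, a lysozyme gene, was also lowest on replicate 3 (6.88; others 7.13 to 7.17). Pparg, a nuclear receptor of alveolar macrophages, was highest on replicate 4 (4.35; others 3.98 to 4.05).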

How the results depend on the processing

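Counts of detected genes stayed within 1.5 times the main count under every alternative run, except for the 10 members, which went from 3 to 5 with the positive flag and to 5 with the negative controls. Leaving out any array kept 3. The count of detected members over 2-fold went from 1 to 0 with no scaling, to 0 with normexp (run on median signals) and, with all 10 members and no filter on dim probes, to 5; leaving out 1 array gave 0 to 1. The count of hypervariable members was 0 under every alternative, while the count over all genes went from 20 to 4 without the trend, to 58 with normexp, to 10 with quantile normalization or the detected-probe percentile, to 13 with the mean over probes, and to between 3 and 61 without 1 array. The median SD of the 3 detected members (0.289) ranged from 0.210 to 0.353; over all 10 members, with no filter on dim probes, it was 0.416. Normexp, which changed both the input (median signals) and the background correction (with an offset of 50), moved 9 of 10 member levels by more than their SD, RT1-Da from -7.89 to -3.88 and RT1-DMb from 2.02 to 1.43; the cause was not tested. No paired analysis was possible because the series has 1 group.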

Other observations

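Several genes of the pathway lists were well above background on some arrays only. Socs1, an inhibitor of cytokine signalling that dampens the interferon gamma response, was at -6.09, -4.21, -7.92 and -7.33 on replicates 1 to 4 and was flagged on 1 array. Cd37, a tetraspanin of presenting cells, was at -7.28, -4.43, -5.89 and -6.26 and was flagged on 1 array. Cd209a, a lectin of dendritic cells, was at -5.46, -5.12, -8.18 and -5.38, with 2 arrays flagged. The highest array was replicate 2 for all 3.

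Among genes on the array with a promoter entry, 52.3% were detected. The share was 65.3% of 1096 genes with the Y box letters and 43.5% of 991 with the X box letters; these are descriptions with no test.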
